A study of Mus musculus with 48 samples.

Results

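Genes that one inbred mouse strain transcribes and another leaves silent were described in mouse tibial metaphysis, a zone of trabecular bone and marrow beneath the growth plate. A gene was taken where its mean level over both limbs was below 0.1 CPM (counts scaled by the library's total count to a total of 1000000) in at least 1 strain and 10 CPM or more in at least 1 other. Predicted genes with Gm numbers, Rik clones, -ps pseudogenes and immunoglobulin segments were set aside by name. This left 47 genes out of 32544 in the table, or 0.422% of the 11130 genes that reached 10 CPM in a strain and passed the same name filter. The genes were chosen by their level in each strain, so every strain level below is a description and was not tested. The rule did not use the difference between limbs, which was tested. A gene could still reach 10 CPM through the limb where it was higher. Of the genes called for the cast effect below, BC117090 was not chosen from control limbs alone. Myh3 and Otogl were not chosen from immobilized limbs alone. For BC117090, Myh3 and Otogl the choice and the test of the limbs are not independent. Wfdc17 was also not chosen from immobilized limbs alone, because CAST/EiJ was not below 0.1 CPM there. CAST/EiJ did not enter the test of Wfdc17.

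Inbred strains carry fixed variants, and a gene can be lost from a strain's genome, disabled at its promoter or present in a different number of copies. A processed pseudogene is a spliced copy of a messenger RNA pasted back into the genome, and some strains hold a copy that others lack. Families that expand in tandem, such as stefins, kallikreins, major urinary proteins and interferon-induced GTPases, are known to differ in gene content between mouse strains.

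The animals were male, 19 weeks old, from the wild-derived strains CAST/EiJ, PWK/PhJ and WSB/EiJ and the strains A/J, C57BL/6J, 129S1/SvImJ, NZO/HlLtJ and NOD/ShiLtJ. A cast immobilized the left hindlimb for 3 weeks, and its partner on the right served as the control, so cast and body side cannot be told apart. There were 48 libraries from 24 mice, in 16 groups of 3. The submitters' notes name 1 genome build for all strains, mm10, which derives from C57BL/6J.

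A/J control replicates 2 and 5 held 2335 and 50 counts and were left out, which leaves A/J with 4 usable libraries and 1 mouse with both limbs. The other 46 libraries held 5253408 to 14744056 counts with a median of 7593532. All 7 bone markers were counted in every library. Skeletal muscle RNA varied widely: the 10 muscle markers together made up 20.3 to 38950 CPM, with the highest sum in NOD/ShiLtJ control replicate 4. The summed level of 14 liver genes was 13.6 to 121 CPM in PWK/PhJ libraries and 0.129 to 30.3 CPM in those of the other 7 strains. These sums are given again beside the genes they move with.

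Many of the 47 genes have a near-identical copy elsewhere in the genome. Of the 43 genes found by symbol in GENCODE M21 (GRCm38), 16 (37.2%) had another annotated transcript at least 95% identical over at least 50% of their length, against 464 of 10892 genes (4.26%) among those with a transcript that reached 10 CPM and passed the name filter. Processed pseudogenes made up 6 of the 43 (14.0%), against 8 of 10873 genes (0.0736%) in that filtered set, from which many pseudogenes had been set aside by name. The lines below give 60 bases of 5 such pairs from the GENCODE M21 transcripts, 5′ to 3′ on each transcript's own strand, within the coding region of the copied gene. They are shown because the counts of these pairs shift from one copy to the other between strains, and capitals mark the bases that differ within a pair.
Pgk1-rs7: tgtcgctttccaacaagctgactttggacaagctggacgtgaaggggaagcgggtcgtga
Pgk1: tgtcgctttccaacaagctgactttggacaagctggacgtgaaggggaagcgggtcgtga
Rps12l1: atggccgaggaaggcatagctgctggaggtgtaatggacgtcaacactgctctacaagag
Rps12: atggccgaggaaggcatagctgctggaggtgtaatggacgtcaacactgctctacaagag
Vcp-rs: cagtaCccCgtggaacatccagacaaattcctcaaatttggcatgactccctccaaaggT
Vcp: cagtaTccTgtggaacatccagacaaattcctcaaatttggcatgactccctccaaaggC
Rpl6l: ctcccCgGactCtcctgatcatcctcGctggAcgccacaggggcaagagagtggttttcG
Rpl6: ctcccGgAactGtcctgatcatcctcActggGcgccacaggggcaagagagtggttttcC
Cd300ld5: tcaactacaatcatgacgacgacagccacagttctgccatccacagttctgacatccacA
Cd300ld4: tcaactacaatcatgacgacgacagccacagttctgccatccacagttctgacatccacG
Pgk1-rs7 (chr12:10898986-10900240, minus strand) equals Pgk1, the glycolytic enzyme phosphoglycerate kinase, in all 1255 aligned bases. Rps12l1 (chr7:56014016-56014414, plus strand) equals Rps12, a protein of the small ribosomal subunit, in all 399. Within the windows shown, Vcp-rs (chrX:104345829-104348234, minus strand) differs from the ATPase gene Vcp at 3 bases, Rpl6l (chr10:111125851-111126721, plus strand) from the large-subunit gene Rpl6 at 6, and Cd300ld5 (chr11:115031486-115037769, minus strand) from Cd300ld4 at 1. The assignment of reads within these pairs is uncertain, and a gene that is not transcribed and one whose reads were counted at its copy cannot be told apart.

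The 47 genes gave 122 silent gene and strain combinations, 111 at or above 10 CPM and 143 in between. No read was counted in 59 of the 122, a further 49 had 1 to 3 counts over all libraries of the strain, and 14 had more. Of the 700 library values in silent combinations, 596 (85.1%) were 0, and the highest was 0.594 CPM. In 43 of the 47 genes every silent library lay below every library of the strains that reached 10 CPM. The ranges overlapped in Actc1, Gvin1, Lrrc14b and Myh3. The genes were chosen on the means of these same libraries, so the zeros and the separation largely follow from the choice.

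**Figure D1:**
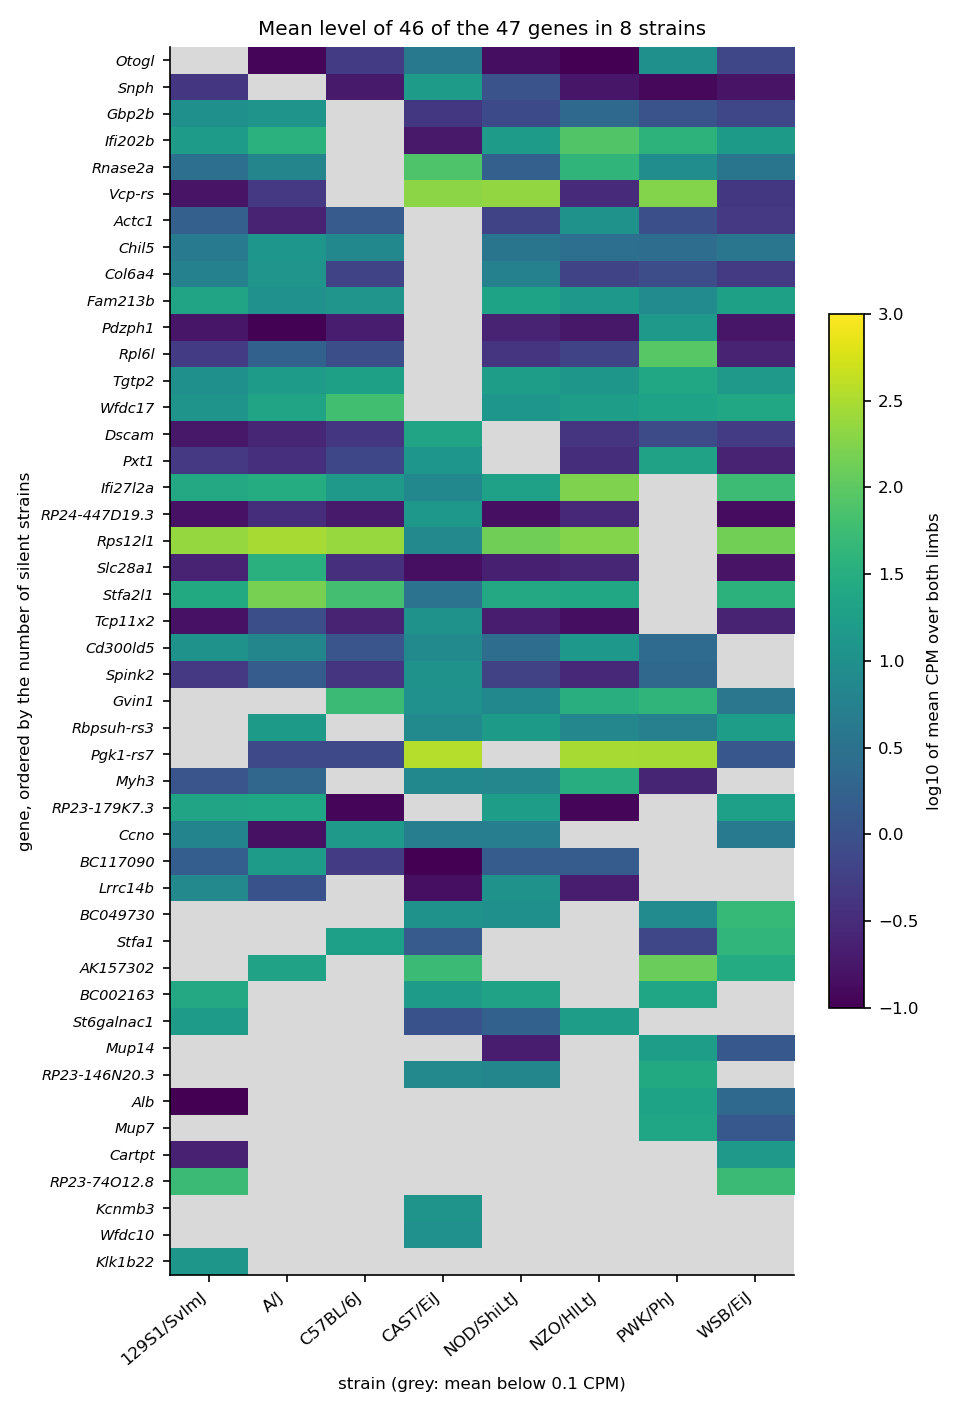
Mean level of 46 of the 47 genes (rows) in the 8 strains (columns) as the log10 of mean CPM over both limbs, with grey where the mean was below 0.1 CPM. The 24 genes silent in 1 strain stand first and the 3 drawn genes silent in 7 strains last.

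Every strain had silent genes. C57BL/6J lacked 21, PWK/PhJ 17, A/J and CAST/EiJ 16 each, NZO/HlLtJ 14, 129S1/SvImJ and NOD/ShiLtJ 13 each, and WSB/EiJ 12. Silence was confined to 1 strain in 24 genes, to 2 to 4 strains in 13 and reached 5 or more strains in 10, in 28 different sets of strains. CAST/EiJ was the only silent strain for 8 genes and PWK/PhJ for 6, and NZO/HlLtJ for 0. A/J and C57BL/6J shared 13 silent genes, which is 81.2% of those of A/J and 61.9% of those of C57BL/6J. NZO/HlLtJ shared 12 of its 14 (85.7%) with A/J, and 12 with C57BL/6J, which are 75.0% and 57.1% of the silent genes of those strains. The opposite pattern, 10 CPM in 1 strain only, held for 25 genes, 7 of them in CAST/EiJ and 7 in PWK/PhJ.

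**Figure D2:**
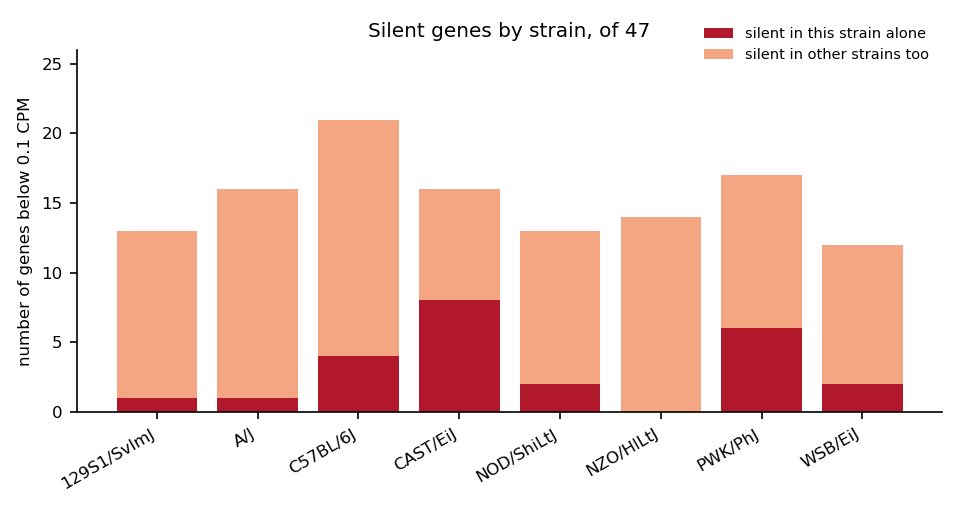
Number of the 47 genes with a mean below 0.1 CPM in each strain, with the genes silent in that strain alone in dark red and those also silent elsewhere in light red. The bar of C57BL/6J is the tallest at 21 genes, and the dark part is longest in CAST/EiJ at 8.

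C57BL/6J alone lacked Gbp2b, Ifi202b, Rnase2a and Vcp-rs. Ifi202b (chr1:173962568-173982744) encodes a cytosolic DNA-binding protein of the interferon-inducible Ifi200 family. It had 1 count in all 6 C57BL/6J libraries together, with a lowest and median value of 0 and a highest of 0.124 CPM, against a lowest of 61.0, a median of 75.0 and a highest of 144 CPM in NZO/HlLtJ. CAST/EiJ, at a mean of 0.187 CPM, stood just above the limit for silence, and the remaining 6 strains averaged 15.1 to 82.6 CPM without overlapping either. Gbp2b (chr3:142594847-142619179), an interferon-induced guanylate-binding GTPase, was counted once in C57BL/6J, at 0.1 CPM in 1 immobilized limb, against 6.4 to 15.1 CPM in A/J and 7.11 to 17.1 CPM in 129S1/SvImJ. The other 5 strains held it at means of 0.442 to 2.36 CPM, so its levels formed 3 steps. Rnase2a (chr14:51255262-51256112), a member of the eosinophil ribonuclease family, averaged 0.0996 ± 0.082 CPM in C57BL/6J, against 79.3 ± 38.3 CPM in CAST/EiJ and 41.9 ± 21.8 CPM in NZO/HlLtJ (SD, n = 6 each).

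CAST/EiJ alone lacked Actc1, Chil5, Col6a4, Fam213b, Pdzph1, Rpl6l, Tgtp2 and Wfdc17. Wfdc17 (chr11:83703991-83706268), a small secreted whey-acidic-protein domain gene of macrophages, had 0.252, 0 and 0.272 CPM in CAST/EiJ immobilized limbs and 0 in all 3 control limbs. It was counted in every library of the other 7 strains, from 5.64 to 90.5 CPM, and highest in C57BL/6J at 61.2 ± 16.4 CPM (SD, n = 6). The 4 counts in CAST/EiJ place it 313-fold below the strains that expressed it. Tgtp2 (chr11:49057194-49064206), an interferon-induced immunity-related GTPase, had 2 counts in CAST/EiJ, both in 1 immobilized limb at 0.272 CPM, against 6.4 to 32.6 CPM in the 40 libraries of the other 7 strains. Fam213b (chr4:154895504-154899135), a thioredoxin-like prostaglandin synthase, had 3 counts in 1 CAST/EiJ limb (0.408 CPM) and 5.94 to 48 CPM in the 34 libraries of the 6 strains at 10 CPM or more. Chil5, a chitinase-like protein, was silent in CAST/EiJ at 0.136 CPM or less and averaged 2.73 to 12.8 CPM in the other 7 strains. Col6a4, a collagen VI chain, and Pdzph1 reached 10 CPM in 1 strain each, A/J at a mean of 12.3 CPM and PWK/PhJ at 14.1 CPM.

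PWK/PhJ alone lacked Ifi27l2a, RP24-447D19.3, Rps12l1, Slc28a1, Stfa2l1 and Tcp11x2. Ifi27l2a (chr12:103442167-103443680), a small membrane protein induced by interferon, had no count in any of the 6 PWK/PhJ libraries, against 43.0 to 343 CPM with a median of 160.0 in NZO/HlLtJ and 6.8 to 129 CPM in the other 5 strains at 10 CPM or more. Set against a floor of 3 counts over the silent libraries, it was at least 832-fold lower in PWK/PhJ. Stfa2l1 (chr16:36156811-36161953), a stefin A inhibitor of cysteine proteases, also had no count in PWK/PhJ, against 31.1 to 252 CPM in A/J and 2.89 to 108 CPM in the other 5 strains at 10 CPM or more. That places it at least 631-fold lower in PWK/PhJ. CAST/EiJ was neither silent nor at 10 CPM for these genes and averaged 7.36 CPM of Ifi27l2a and 3.32 CPM of Stfa2l1. Slc28a1 (chr7:81114799-81170416), a sodium-coupled nucleoside transporter, was a gene of A/J: it averaged 0.0951 CPM in PWK/PhJ and 0.143 to 0.359 CPM in 6 other strains, against 34.9 ± 12.3 CPM in A/J (SD, n = 4). RP24-447D19.3 and Tcp11x2, a testis-associated gene on the X chromosome, reached 10 CPM only in CAST/EiJ, at means of 13.4 and 11.3 CPM.

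The other 4 strains with genes of their own had few. NOD/ShiLtJ alone lacked Dscam and Pxt1. Pxt1 (chr17:28933984-28943840), known as a testis-specific peroxisomal gene, had no count in the 6 NOD/ShiLtJ libraries, at least 277-fold lower than in CAST/EiJ and PWK/PhJ at 5.99 to 31.5 CPM. Dscam (chr16:96590840-97170752), a neuronal cell adhesion molecule, had 5 counts in NOD/ShiLtJ, at most 0.317 CPM, and 6.56 to 31.3 CPM in CAST/EiJ. WSB/EiJ alone lacked Cd300ld5 and Spink2. Cd300ld5, a myeloid immunoglobulin-like receptor, had no count in WSB/EiJ and 3.28 to 36.4 CPM in NZO/HlLtJ and 129S1/SvImJ, and Spink2 (chr5:77205107-77211471), a Kazal-type serine protease inhibitor, had 2 counts in WSB/EiJ and 6.62 to 17.3 CPM in CAST/EiJ. Snph (chr2:151590549-151632593), the axonal mitochondrial anchor syntaphilin, was the gene lacked by A/J alone, with no count in 4 libraries and 11.4 to 26.4 CPM in CAST/EiJ. Otogl (chr10:107760531-107912134), an otogelin-like glycoprotein of the inner ear, had 1 count in 129S1/SvImJ, 0.152 CPM in 1 control limb, and 3.43 to 19.4 CPM in PWK/PhJ.

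Across all 47 genes, 38 had at least 1 strain at an intermediate level and 9 had none. Of the genes silent in 1 strain alone, Dscam, Pdzph1, RP24-447D19.3, Slc28a1 and Tcp11x2 reached a mean of 1 CPM in only 1 strain. Otogl, Pxt1, Rpl6l and Snph reached it in 2 strains. In the other strains these genes were silent or near silent.

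Another 13 genes were silent in 2 to 4 strains. Pairs of strains lacked Gvin1 (129S1/SvImJ and A/J), Rbpsuh-rs3 (129S1/SvImJ and C57BL/6J), Pgk1-rs7 (129S1/SvImJ and NOD/ShiLtJ), Myh3 (C57BL/6J and WSB/EiJ), RP23-179K7.3 (CAST/EiJ and PWK/PhJ), Ccno (NZO/HlLtJ and PWK/PhJ) and BC117090 (PWK/PhJ and WSB/EiJ). Lrrc14b was silent in C57BL/6J, PWK/PhJ and WSB/EiJ. The 5 genes silent in 4 strains were BC049730 (129S1/SvImJ, A/J, C57BL/6J and NZO/HlLtJ), Stfa1 (129S1/SvImJ, A/J, NOD/ShiLtJ and NZO/HlLtJ), AK157302 (129S1/SvImJ, C57BL/6J, NOD/ShiLtJ and NZO/HlLtJ), BC002163 (A/J, C57BL/6J, NZO/HlLtJ and WSB/EiJ) and St6galnac1 (A/J, C57BL/6J, PWK/PhJ and WSB/EiJ).

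Gvin1 (chr7:106156556-106215326), a very large interferon-inducible GTPase, had no count in the 10 libraries of 129S1/SvImJ and A/J, at least 781-fold below the 4 strains that reached 10 CPM. It averaged 53.3 ± 22 CPM in C57BL/6J and 42.1 ± 13.5 CPM in PWK/PhJ (SD, n = 6 each), but 1 CAST/EiJ library also held 0, so its ranges overlapped. AK157302 (chr13:21495223-21497146), which is 99.0% identical to the iron-sulfur assembly gene Isca1, had 0 to 0.216 CPM in its 24 silent libraries, against 67.0 to 157 CPM with a median of 132 in PWK/PhJ and a mean of 20.4 to 52.8 CPM in A/J, CAST/EiJ and WSB/EiJ. BC002163 (chr16:42955631-42955949), a processed copy of the respiratory chain gene Ndufs5, split the strains evenly: 4 lay at 0.0463 CPM or less and 4 between 15.9 and 25.9 CPM on average, with no strain in between. Stfa1 (chr16:36276951-36285373) had 1 count in 22 libraries of its 4 silent strains, against 7.93 to 120 CPM in WSB/EiJ and 7.2 to 35.4 CPM in C57BL/6J. Ccno (chr13:112987802-112990777), an atypical cyclin of multiciliated cells, had 7 counts in 12 silent libraries and 10.6 to 18.8 CPM in C57BL/6J. St6galnac1, a sialyltransferase that caps mucin-type sugars, reached 10 CPM in NZO/HlLtJ at a mean of 17.6 CPM and in 129S1/SvImJ at 15.8 CPM.

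The 10 genes silent in 5 or more strains reached 10 CPM in 1 or 2 strains each. Alb was silent in CAST/EiJ, A/J, C57BL/6J, NZO/HlLtJ and NOD/ShiLtJ, Mup14 in CAST/EiJ, 129S1/SvImJ, A/J, C57BL/6J and NZO/HlLtJ, and RP23-146N20.3 in 129S1/SvImJ, A/J, C57BL/6J, NZO/HlLtJ and WSB/EiJ. Mup7 was silent outside PWK/PhJ and WSB/EiJ, and Cartpt and RP23-74O12.8 outside 129S1/SvImJ and WSB/EiJ. Kcnmb3 and Wfdc10 were silent in every strain but CAST/EiJ, and Klk1b22 in every strain but 129S1/SvImJ.

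Klk1b22 (chr7:44112673-44116922) is a glandular kallikrein of the serine protease family. It had no count in 40 libraries of 7 strains, against 2.73, 14.3 and 13.2 CPM in the immobilized and 5.41, 34.0 and 8.26 CPM in the control limbs of 129S1/SvImJ, which makes it at least 1370-fold lower in the silent strains. Without 129S1/SvImJ replicate 3 it did not meet the rule. RP23-74O12.8, for which the annotation used gave no position, had 5 counts in the 34 libraries of its 6 silent strains, against 42.7 to 61.7 CPM in 129S1/SvImJ and 43.0 to 67.4 CPM in WSB/EiJ.

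RP23-146N20.3, also without a position, had 4 counts in its 28 silent libraries and 17 to 36.6 CPM in PWK/PhJ. Cartpt (chr13:99898489-99901091), the precursor of a neuropeptide, had 2 counts in 34 silent libraries and was seen in WSB/EiJ, from 3.02 to 39.2 CPM with a median of 9.66. Kcnmb3, a subunit of calcium-activated potassium channels, and Wfdc10, a whey-acidic-protein domain gene, reached 11.6 ± 2.34 and 10.4 ± 2.85 CPM in CAST/EiJ (SD, n = 6 each).

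**Figure D3:**
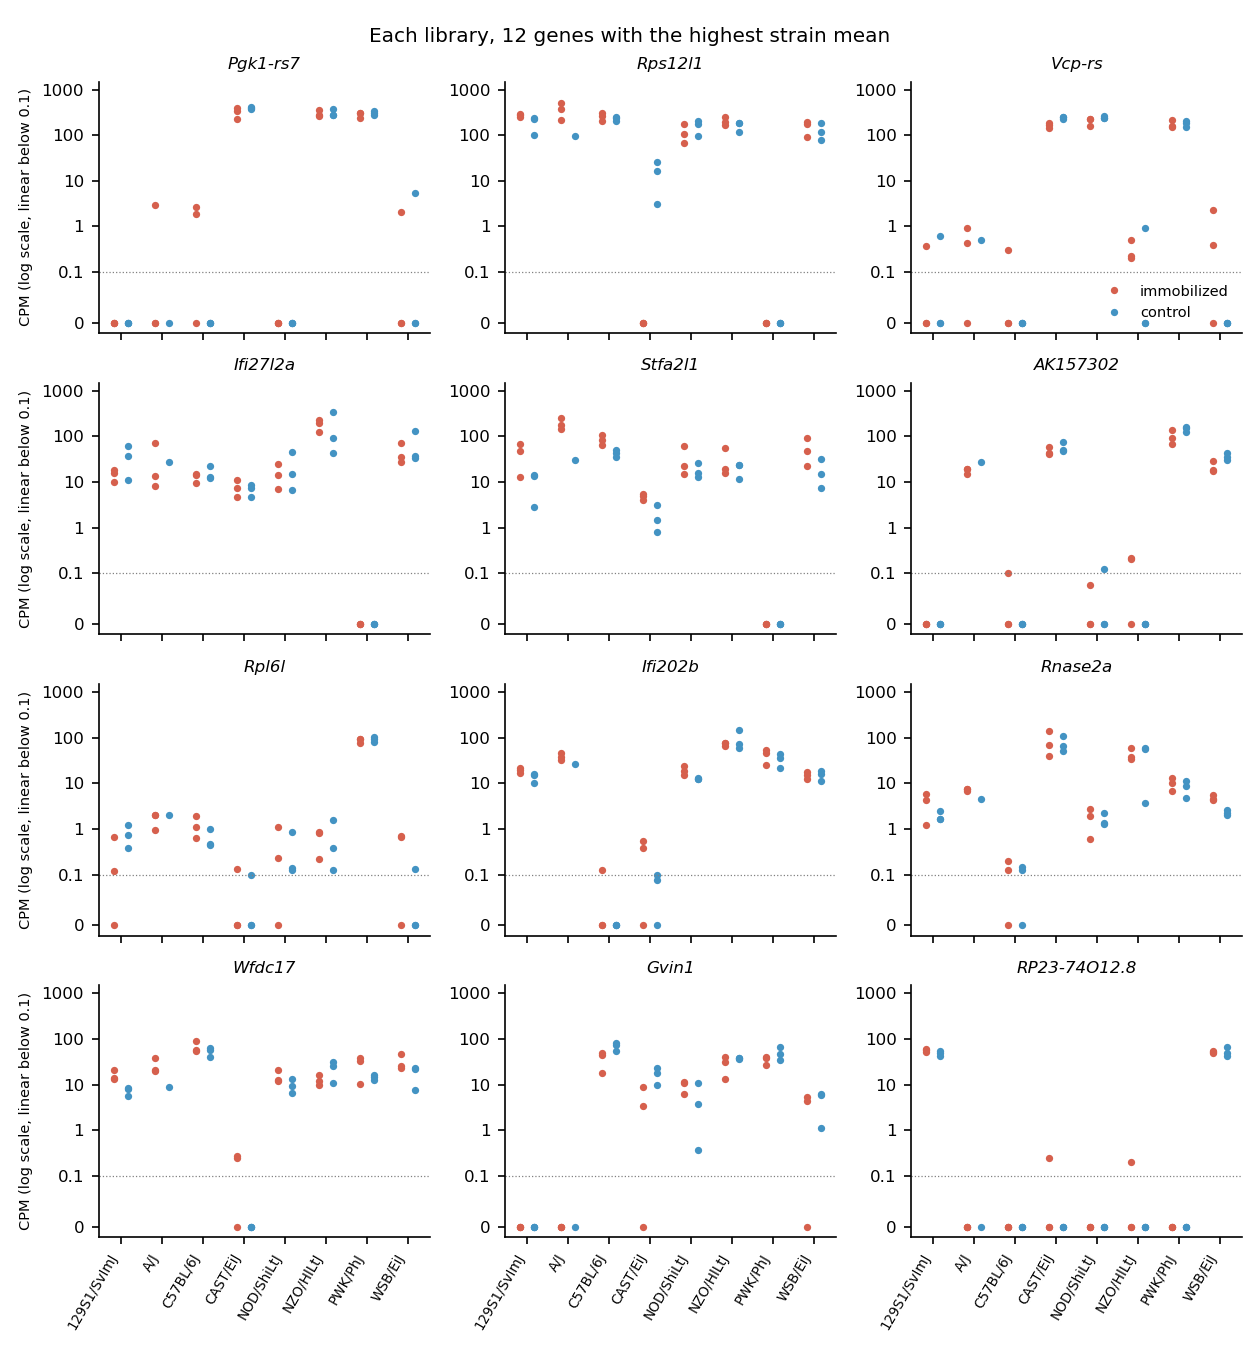
CPM of each library for the 12 genes with the highest strain mean, on a log axis that is linear below 0.1 CPM, by strain, with immobilized limbs in red and control limbs in blue. Silent strains lie on or near 0, for example Pgk1-rs7 in 129S1/SvImJ and NOD/ShiLtJ, and the 3 CAST/EiJ immobilized limbs lie at 0 for Rps12l1.

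Markers of liver and muscle moved with some of the patterns. Alb, the blood protein albumin, and the urinary pheromone carriers Mup7 (chr4:60066469-60070475) and Mup14 (chr4:61300023-61304000) are made in liver. All 3 reached 10 CPM in PWK/PhJ only. Mup7 had 71.8, 29.7 and 10.3 CPM in PWK/PhJ immobilized limbs and 8.35, 4.32 and 17.5 CPM in control limbs. The summed level of 14 liver genes in the same libraries was 121, 42.5 and 16.4 CPM in immobilized and 20.2, 13.6 and 28.0 CPM in control limbs, at most 2 of the 14 being at 0. Of the 14, 4 are Mup genes related to Mup7 and Mup14, and the other 10 summed to 61.3, 20.8 and 8.49 CPM in immobilized and 10.9, 7.6 and 19.1 CPM in control limbs. Those 10 reached 30.3 CPM in a C57BL/6J control limb, where Alb, Mup7 and Mup14 were silent and the 4 Mup genes were at 0. PWK/PhJ immobilized replicate 3 was highest for Alb (62.8 CPM), Mup7, Mup14 (51.0 CPM) and the liver sum. The liver list was added after these genes had been seen, and its part in the result was not tested.

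Actc1 (chr2:114047282-114053548), Lrrc14b (chr13:74359578-74364005) and Myh3 (chr11:67078300-67102291) entered through single libraries. Myh3, the embryonic myosin heavy chain, had 0, 0 and 0 CPM in immobilized and 184, 1.03 and 2.19 CPM in control limbs of NZO/HlLtJ. Actc1, the cardiac muscle actin, had 63.2 CPM in the same control library, replicate 4, and 1.03 and 0.644 CPM in the other control limbs. The muscle marker sum in these 3 control libraries was 902, 244 and 4344 CPM, so the library with most Myh3 and Actc1 was not the one with most muscle RNA. NZO/HlLtJ control replicate 4 stood apart from replicates 5 and 6: erythroid markers summed to 16.5 CPM in it and to 2050 and 1497 CPM in the other two, neutrophil markers to 3593 CPM against 34040 and 36450 CPM, and bone markers to 45990 CPM against 3981 and 14280 CPM. Their part in the levels of Myh3 and Actc1 was not tested. Lrrc14b had 0, 1.74 and 0.302 CPM in immobilized and 47.6, 4.16 and 12.1 CPM in control limbs of NOD/ShiLtJ, where the muscle sum was 1371, 5198 and 1515 CPM in immobilized and 38950, 10530 and 14710 CPM in control limbs. Without NZO/HlLtJ replicate 4, neither Actc1 nor Myh3 met the rule, and without NOD/ShiLtJ replicate 4, Lrrc14b did not.

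The counts of 4 processed copies and of the genes they were copied from are set side by side below, as CPM that are not divided by length. Pgk1-rs7 had the highest CPM of the 47 genes. It had no count in 129S1/SvImJ and NOD/ShiLtJ, at least 10200-fold less than the 228 to 423 CPM of CAST/EiJ, the 264 to 368 CPM of NZO/HlLtJ and the 241 to 338 CPM of PWK/PhJ. Pgk1 ran the other way, at means of 46.8, 45.9 and 26.6 CPM in CAST/EiJ, NZO/HlLtJ and PWK/PhJ, against 286 to 426 CPM in the other 5 strains. The sum of the pair was 287 to 427 CPM in all 8 strains. Pgk1-rs7 took a median of 88.4% of that sum in CAST/EiJ, 86.7% in NZO/HlLtJ and 91.3% in PWK/PhJ, and at most 2.17% in any library of the other 5.

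Rps12l1 had no count in PWK/PhJ, at least 2700-fold less than in the 6 strains that averaged 137 to 303 CPM. Rps12 was at 410 ± 86.3 CPM in PWK/PhJ and 171 ± 39.7 CPM in CAST/EiJ (SD, n = 6 each), against means of 8.82 to 66.5 CPM in the other 6 strains. Within those strains single libraries split the counts differently: in 129S1/SvImJ, Rps12l1 took all the counts of the pair at the median but 46.9% in 1 control limb. Vcp-rs had 3 counts in C57BL/6J and made up a median of 54.6% of the counts of the pair in NOD/ShiLtJ, 52.8% in CAST/EiJ and 42.4% in PWK/PhJ. The sum of Vcp-rs and Vcp was 390 to 457 CPM in all strains. Rpl6l had 2 counts in CAST/EiJ and 76.6 to 103 CPM in PWK/PhJ, where it was 14.8% of the pair. Rpl6 averaged 520 CPM in PWK/PhJ and 719 to 858 CPM in the other 7 strains. Between strains the sum ran from 157 to 410 CPM for Rps12l1 with Rps12, and from 610 to 859 CPM for Rpl6l with Rpl6. By the limits used above, Rps12l1 had 22 annotated copies, Rpl6l 4, Pgk1-rs7 2 and Vcp-rs 1. Counts at copies outside these pairs are not given here.

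**Figure D4:**
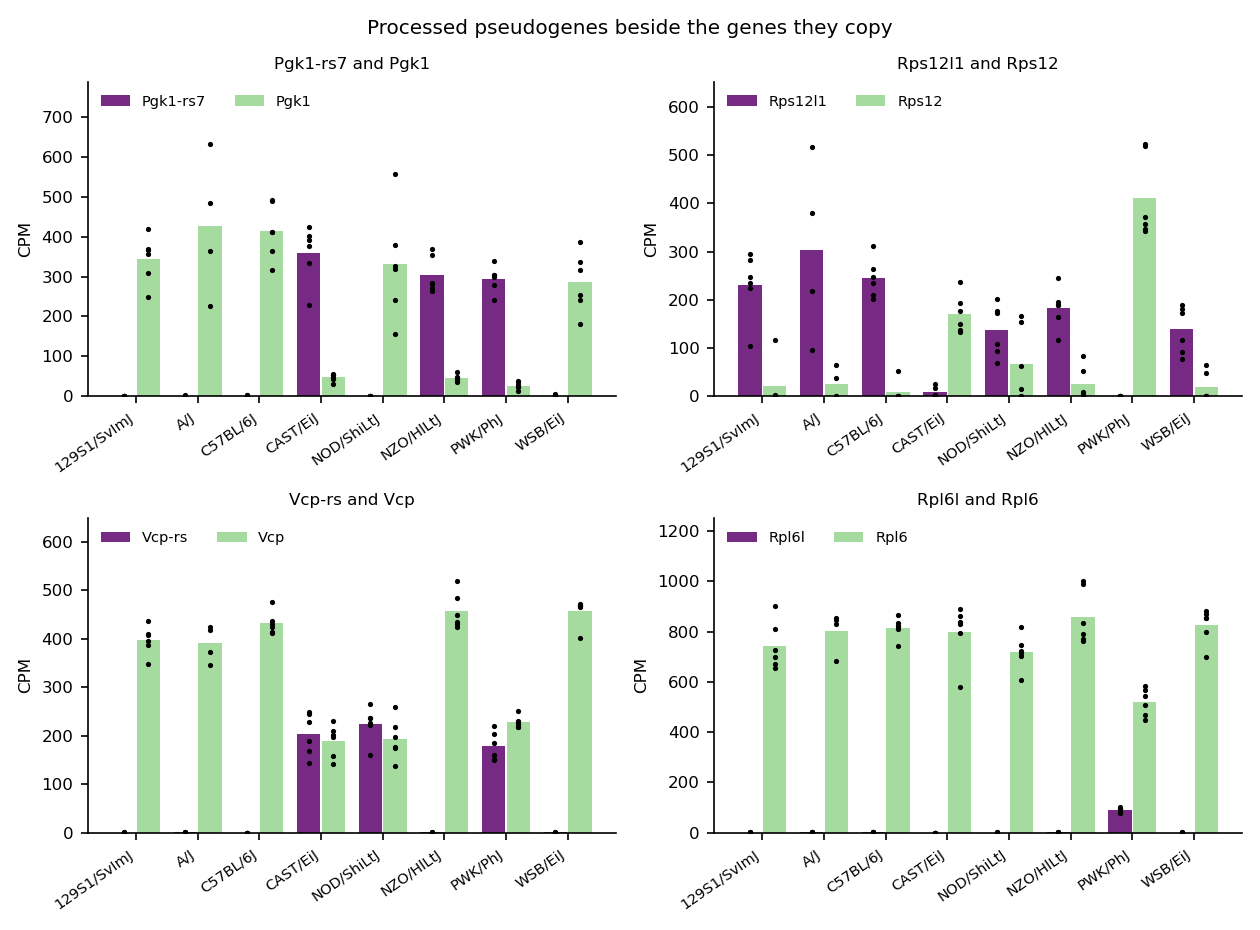
Mean CPM over both limbs of 4 processed copies (purple) and the genes they were copied from (green) in 8 strains, with a point for each library. Pgk1-rs7 is high where Pgk1 is low in CAST/EiJ, NZO/HlLtJ and PWK/PhJ, and Rps12l1 is at 0 in PWK/PhJ where Rps12 averages 410 CPM.

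The other copied genes differed in how their copies ran. Gvin1 matches Gm4070 in all but 3 of 9005 bases; in 129S1/SvImJ and A/J, where Gvin1 had no count, Gm4070 averaged 31.0 and 47.6 CPM, and in PWK/PhJ, where Gvin1 averaged 42.1 CPM, Gm4070 averaged 0.781 CPM. Cd300ld5 had no count in WSB/EiJ, where Cd300ld4 averaged 6.60 ± 2.03 CPM (SD, n = 6), and took every count of the pair in 129S1/SvImJ, A/J, CAST/EiJ, NOD/ShiLtJ and NZO/HlLtJ. Tgtp2 has 6 mismatches to Tgtp1 in 2811 aligned bases. Tgtp1 averaged 4.46 CPM in CAST/EiJ, where Tgtp2 was silent, and 0.108 CPM in WSB/EiJ, where Tgtp2 averaged 14.2 CPM. Isca1 averaged 167 to 240 CPM in the 4 strains without AK157302 and 44.9 to 124 CPM in the 4 with it. Ndufs5 averaged 36.3 to 46.5 CPM without BC002163 and 10.4 to 22.9 CPM with it. Rbpsuh-rs3 (chr6:46529354-46530794), a copy of the Notch-pathway factor Rbpj, had 5.53 to 16.6 CPM in the 6 strains that were not silent, and Rbpj averaged 91.6 CPM in 129S1/SvImJ and 88.3 CPM in C57BL/6J, where the copy was silent, and 62.9 to 84.0 CPM in those 6 strains. Some copies were themselves low where the listed gene was silent. BC100530, the closest copy of BC117090, averaged 0.147 CPM in PWK/PhJ, where BC117090 had no count, but 62.2 CPM in WSB/EiJ, where BC117090 was also silent, and 26.6 to 347 CPM in the 4 strains silent for Stfa1, whose closest copy it also is. Stfa2, the closest copy of Stfa2l1, averaged 0.511 CPM in PWK/PhJ, where Stfa2l1 was silent, and Gm11735, the closest copy of St6galnac1, at most 0.0375 CPM in the 4 strains silent for St6galnac1. Mup14 and Mup7 had 15 annotated copies each at 95% identity or more, the closest being Mup2 for Mup14 and Mup14 for Mup7. Only 1 further copy of each was read here, Mup11 for Mup14 and Mup13 for Mup7, both 98.8% identical. Mup11 and Mup13 averaged at most 0.0164 CPM in the strains where Mup14 and Mup7, respectively, were silent.

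The 43 placed genes lay on 16 chromosomes, with Tcp11x2 and Vcp-rs on X. The symbols RP23-146N20.3, RP23-179K7.3, RP23-74O12.8 and RP24-447D19.3 were not matched. The only 3 genes within 500 kb of each other were Stfa2l1, Stfa1 and BC117090, all stefins, at chr16:36156811-36334332. Their silent strains differed: PWK/PhJ for Stfa2l1, PWK/PhJ and WSB/EiJ for BC117090, and 4 others for Stfa1, which averaged 0.717 CPM in PWK/PhJ. All 3 were thus low in PWK/PhJ, though Stfa1 was lower still in its 4 silent strains. Low there too were BC100530 at 0.147 CPM, Stfa2 at 0.511 CPM and the neighbouring Gm5483 at 0.238 CPM. In CAST/EiJ, Stfa2l1 averaged 3.32 CPM, Stfa1 1.43 CPM and BC117090 0.103 CPM. The nearest genes that reached 10 CPM on either side of each placed gene, at a median distance of 78.7 kb, were read in the same silent strains. Of 216 such readings 157 were at 10 CPM or more and 193 at 1 CPM or more, and 13 were below 0.1 CPM. Those 13 belonged to Gm11273 beside AK157302, Gm4540 beside Chil5, and Mup7 and Mup14 beside each other.

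The 47 genes were also counted by gene family, matched by the start of the gene symbol. Interferon-induced GTPases and antiviral genes supplied 3 of 82 genes that reached 10 CPM (Gbp2b, Gvin1 and Tgtp2), and DNA sensors and related interferon-inducible genes 2 of 17 (Ifi202b and Ifi27l2a). The list of 82 takes in every Trim gene at that level, among them Trim28 and the muscle genes Trim63 and Trim72. Stefins, serpins and kallikreins supplied 3 of 31 (Klk1b22, Stfa1 and Stfa2l1), a list that misses BC117090 by its name and takes in 4 Cstf genes for messenger RNA cleavage factors, and secretory ribonucleases 1 of 14 (Rnase2a). The list of glutathione transferases and drug metabolism genes, which also holds the Mup genes, supplied 2 of 60. Genes with ribosomal protein symbols supplied 2 of 97, paired immunoglobulin-like receptors 1 of 36, and solute carriers with ABC transporters 1 of 233. The ribosomal list takes in the kinase genes Rps6ka2 and Rps6ka4, and its 2 genes here, Rpl6l and Rps12l1, are processed pseudogenes. Zinc finger proteins supplied 0 of 218. The share over all genes was 0.422%, and in 32 of the 47 no listed family applied. Of 13 genes known for loss alleles in at least 1 common strain, 10 reached 10 CPM and 1, Ifi202b, was among the 47. H2-Ea-ps, the MHC class II gene disrupted in several strains, had 0 CPM in 129S1/SvImJ and C57BL/6J and a mean of 163 CPM in NZO/HlLtJ, and only the name filter kept it out. Nnt, whose coding sequence is partly deleted in C57BL/6J, still averaged 22.8 CPM there against 70.8 CPM in PWK/PhJ, and Dysf, disrupted by an insertion in A/J, 8.17 CPM there against 66.1 CPM in CAST/EiJ. Il3ra, Mx1, Gpr84, Casp4, Nlrp1b and Naip5 had their lowest strain means between 1.6 and 7.33 CPM.

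Genes lay close to both thresholds on either side. Just inside the limit for silence stood Rnase2a at 0.0996 CPM and Slc28a1 at 0.0951 CPM, and just outside Tgtp1 at 0.108 CPM. Just inside the limit for expression stood Otogl at 10.2 CPM and Wfdc10 at 10.4 CPM, and just outside Ear10 at 9.93 CPM and 9930111J21Rik1 at 9.78 CPM. When the rule was applied to control limbs alone it gave 73 genes, 42 of them among the 47. Of their 163 silent combinations, 106 were below 0.1 CPM and 154 below 1 CPM in the immobilized limbs of the same strain. The highest was Col10a1 in A/J at 16.2 CPM. In A/J the control side was 1 usable library, while all A/J mice gave immobilized limbs. Applied to immobilized limbs alone the rule gave 65 genes, 38 of them among the 47. Of 166 silent combinations, 128 were below 0.1 CPM and 158 below 1 CPM in control limbs. The highest was Rps12 in 129S1/SvImJ at 40.1 CPM.

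The cast effect was measured over the strains that expressed a gene at a mean of 1 CPM or more, in 22 mice with both limbs, with a term for each mouse. Over all 15985 genes tested, 1409 were called at a false discovery rate (FDR) below 0.05 with edgeR's quasi-likelihood test and Benjamini-Hochberg adjustment, which is 8.81% (5.22% higher and 3.6% lower in immobilized limbs). The split was 834 higher and 575 lower, against 371 higher and 859 lower without scaling beyond column totals, where the same 7 listed genes were called in the same directions. All 47 genes passed the filter on low counts, and 7 were called, 4 higher and 3 lower. Stfa1, Stfa2l1, BC117090 and Wfdc17 were higher in immobilized limbs, and Otogl, Myh3 and Tgtp2 lower. BC117090, Myh3 and Otogl, counted among the 7, reached 10 CPM through the limb where they were higher. Their choice and this test are therefore not independent. The median change was -0.14 for the 47 genes and 0.007 for all genes (log2). In bulk tissue, fewer cells of a type and less RNA per cell cannot be told apart.

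The 3 stefins rose together. Stefins bind and block cathepsins and related cysteine proteases, and the stefin A genes of mouse are known from neutrophils and skin. Stfa1 had 23.9, 22.3 and 35.4 CPM in immobilized limbs of C57BL/6J against 7.78, 7.2 and 11.5 CPM in control limbs. In WSB/EiJ it had 120, 42.2 and 36.1 CPM in immobilized and 35.2, 18.0 and 7.93 CPM in control limbs, and in CAST/EiJ 1.14, 1.04 and 3.81 CPM in immobilized and 0.493, 0.591 and 1.51 CPM in control limbs. The ranges did not overlap in C57BL/6J and WSB/EiJ and overlapped in CAST/EiJ, and all 9 mice were higher in the immobilized limb. The log2 change was 1.57 ± 0.25 (SE, edgeR FDR 0.00511). DESeq2 gave 1.55 with an adjusted p of 0.306. Stfa2l1, measured in 7 strains, changed by 1.51 ± 0.27 (edgeR FDR 0.00572) and was higher in 17 of 19 mice, and BC117090 by 1.71 ± 0.36 in 4 strains (edgeR FDR 0.0131), higher in 9 of 10 mice. BC117090 rested in part on A/J replicate 1, without which its change was 1.11 (edgeR FDR 0.0514).

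In A/J, Stfa2l1 had 252, 175 and 147 CPM in immobilized limbs and 31.1 CPM in the 1 usable control limb. The 8 neutrophil markers moved with it, at a sum of 85120, 50400 and 43570 CPM in those immobilized limbs and 17120 CPM in that control limb. In C57BL/6J, where Stfa1 did not overlap between limbs, that sum was 31820, 39380 and 52900 CPM in immobilized and 40580, 48830 and 49370 CPM in control limbs. In PWK/PhJ, Stfa2l1 stayed at 0 in both limbs of all 3 mice, as did BC117090. The related stefins outside the list, Stfa2, Stfa3 and BC100530, were also called higher, at 2.28 ± 0.24, 2.13 ± 0.31 and 2.06 ± 0.27 (SE), and reads of these genes may be shared with the 3 listed ones, whose closest copies are 95.9% to 96.9% identical. Of the 31 genes matched by symbol as stefins, serpins and kallikreins, which include the 4 Cstf genes and not BC117090, edgeR called 8 higher: BC100530, Cstb, Serpine2, Serpinf1, Stfa1, Stfa2, Stfa2l1 and Stfa3. Of 8 neutrophil markers 0 were called (median log2 change 0.21), and their summed level ranged from 3593 to 85120 CPM between libraries; their part in the stefin result was not tested. The 250 bases before the RefSeq start of Stfa2l1 (GRCm38.p6, chr16:36156561-36156810, plus strand) are shown because they hold, in capitals, a run of 21 bases that RefSeq's upstream windows share among 3 of 27025 genes, Stfa1, Stfa2 and Stfa2l1.
Stfa2l1 upstream: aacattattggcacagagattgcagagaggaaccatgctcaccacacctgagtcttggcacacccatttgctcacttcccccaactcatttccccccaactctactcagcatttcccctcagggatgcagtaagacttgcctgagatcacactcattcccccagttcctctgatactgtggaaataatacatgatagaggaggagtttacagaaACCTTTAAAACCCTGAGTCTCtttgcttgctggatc
The run ends 15 bases before the window's end in Stfa2l1 and 12 bases before it in Stfa1, and a shared run is a description of these letters only.

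Wfdc17 rose by 0.65 ± 0.15 (log2, SE, edgeR FDR 0.0189) over the 7 strains that express it, and was higher in 16 of 19 mice. It had 53.4, 58.6 and 90.5 CPM in immobilized and 41.1, 58.6 and 64.7 CPM in control limbs of C57BL/6J, and 9.91, 16.0 and 11.7 CPM in immobilized and 30.9, 25.4 and 10.7 CPM in control limbs of NZO/HlLtJ, the strain that ran the other way. Of 5 macrophage markers 0 were called. Otogl fell by 1.59 ± 0.35 (SE, edgeR FDR 0.0145), with 6 of 6 mice lower. In CAST/EiJ it had 0.884, 1.43 and 1.36 CPM in immobilized and 9.0, 5.22 and 6.94 CPM in control limbs, without overlap, and in PWK/PhJ 3.43, 7.42 and 10.4 CPM in immobilized and 8.8, 19.4 and 11.8 CPM in control limbs, with overlap.

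Tgtp2 fell by 0.39 ± 0.10 (SE, edgeR FDR 0.0242), the smallest of the 7 changes, and was lower in 15 of 19 mice. Its call was lost without A/J replicate 1 (-0.22, edgeR FDR 0.109) and without the term per mouse (edgeR FDR 0.156). Its near-identical neighbour Tgtp1 changed by -0.10 ± 0.16 and was not called. Of the 82 genes matched by symbol as interferon-induced GTPases and antiviral genes, edgeR called 8 lower: Gbp5, Gbp7, Mx1, Tgtp2, Trim56, Trim65 and the muscle genes Trim63 and Trim72. It called 2 higher, Ifitm2 and the bone gene Ifitm5. Myh3 fell by 5.24 ± 1.17 (SE, edgeR FDR 0.0231), lower in 11 of 13 mice. Muscle RNA moved with it: 9 of 10 muscle markers were lower in immobilized limbs, at a median log2 change of -2.2. With the muscle score as a covariate, the calls of Otogl and Stfa1 remained, and the edgeR FDR was 0.339 for Myh3 (-2.05), 0.233 for BC117090 (1.22), 0.0572 for Stfa2l1 (1.06), 0.0778 for Tgtp2 (-0.43) and 0.0768 for Wfdc17 (0.67). Bone markers were higher in 6 of 7 and osteoclast markers in 3 of 3, and their part in these results was not tested.

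**Figure D5:**
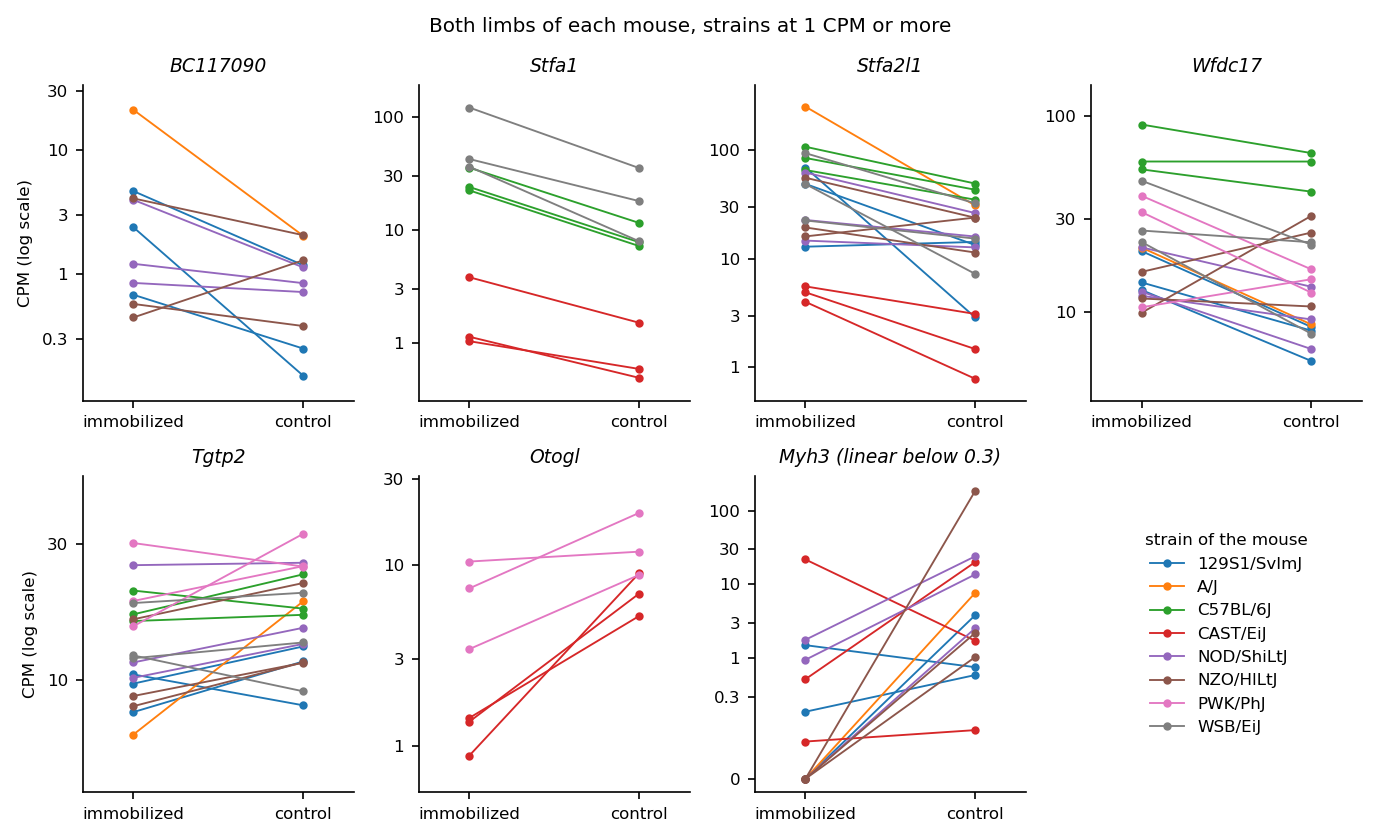
CPM in the immobilized and the control limb of each mouse on a log axis (linear near 0 for Myh3) for the 7 genes called for the cast effect, in strains at a mean of 1 CPM or more, with a line joining the limbs of a mouse and a colour for each strain. Stfa1 is higher in the immobilized limb in 9 of 9 mice, and Otogl is lower in 6 of 6.

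The cast effect differed among the expressing strains in 467 of 15278 genes (3.06%) and in 1 of the 37 listed genes that could be tested, Rps12l1 (edgeR FDR 0.0153). In CAST/EiJ it had 0, 0 and 0 CPM in immobilized limbs and 16.3, 26.1 and 3.11 CPM in control limbs, an edgeR log2 change of -9.86 ± 1.20 (SE, FDR 0.000393) whose size depends on the zeros. Rps12, the identical copied gene, had 177, 137 and 237 CPM in those immobilized limbs and 194, 151 and 134 CPM in those control limbs. In A/J the change was 2.60 ± 0.74 (SE, edgeR FDR 0.0535), and in the other 5 strains it lay between -0.46 and 0.69. The difference among strains was lost without A/J replicate 1 (edgeR FDR 0.0758) and without CAST/EiJ replicate 3 (edgeR FDR 0.0729). The only usable A/J control library stood apart from the A/J immobilized limbs. Bone markers summed to 102700 CPM in it and 7236 to 24440 CPM in those limbs. Growth plate cartilage markers summed to 1033 against 117.6 to 224.3 CPM, and muscle markers to 8962 against 233.4 to 1756 CPM. The part of this library's make-up in the A/J changes was not tested. Within single strains, edgeR called 5.83% of genes in A/J, 17.6% in CAST/EiJ and 10.6% in NOD/ShiLtJ. Of the listed genes it called 1 of 21 tested in A/J, where 1 mouse entered the fit and the spread comes from the other strains (BC117090, 3.52, FDR 0.0458), 3 of 26 in CAST/EiJ (Gvin1, -2.28, FDR 0.0361; Otogl, -2.27, FDR 0.00833; and Rps12l1) and 1 of 24 in NOD/ShiLtJ (Fam213b, -1.28, FDR 0.0245). No listed gene was called by edgeR in C57BL/6J, NZO/HlLtJ, PWK/PhJ, WSB/EiJ or 129S1/SvImJ, where 2, 3, 2, 4 and 4 of them had an unadjusted p under 0.05. In those strains the calls over all genes were also few, at 0.00711% in C57BL/6J, 0.00693% in NZO/HlLtJ, 0.11% in PWK/PhJ, 0.00697% in WSB/EiJ and 0 genes in 129S1/SvImJ. Gm4070, the near-identical partner of Gvin1, changed by 1.05 ± 0.22 over its expressing strains (edgeR FDR 0.0105), where Gvin1 changed by -0.58 ± 0.27 (edgeR FDR 0.2). The change of Gm4070 differed among its expressing strains (edgeR FDR 0.00796), and for Gvin1 no such difference was called (edgeR FDR 0.229).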

How the data were processed

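Per the labels' protocols, RNA of the tibial metaphysis was extracted with an RNeasy kit, prepared as stranded poly(A) TruSeq libraries and sequenced paired-end on a NovaSeq. The authors deposited raw counts per gene for each library, and the submitters' processing notes name mm10, featureCounts and DESeq2. Not given in the sources used here are the aligner, the annotation, the strand setting and any handling of strain variants. Reads that differ from the single build, or that match several copies, could be lost or assigned to another gene, so a low count can be a matter of mapping.

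The deposited count table has 32544 rows, of which 7355 held no count and 27 carried date-like names left by a spreadsheet. CPM were computed from column totals without scaling. A/J control replicates 2 and 5 were left out. Among 45 replicate pairs of a group the lowest chi-square per degree of freedom was 6.36, so no pair was counted as 1 library. Floors of 3 counts cover counting error only.

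The cast effect was fitted to the counts with edgeR 4.0.16 (quasi-likelihood, robust, TMM, filterByExpr with a minimum count of 10) and limma 3.58.1 in R 4.3.3, with each mouse as a block and the limb effect fitted strain by strain, over 44 libraries of 22 mice. The limbs are paired because they come from the same animal, per the series' design. Over 21 mice the correlation of the limbs' deviations from their group means was -0.255 to 0.547 (median 0.093), above 0.1 in 10. P-values were adjusted by Benjamini-Hochberg over all genes tested. On simulated counts for 15985 genes the fit recovered 174 of 200 genes changed by 1 on the log2 scale (87%). It made 8 false calls and no false call of a difference among strains. The simulated spread followed the fit's trend with expression level, without a spread of each gene's own. These figures therefore do not show how the fit performs at the spread of the real data. DESeq2 1.42.0, other scalings, filters and thresholds, a muscle covariate and leaving out each mouse were tried. Copies were found with BLAST+ 2.17.0, and tables were made with Python 3.11.15, pandas 2.3.3 and matplotlib 3.10.9.

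The 47 genes, the gene lists and the tests were chosen with earlier results of these data known. Of the 47, 46 are named, and values are given for up to 4 genes silent in 1 strain alone per strain, up to 8 silent in 5 or more strains, the 12 highest, groups within 500 kb, every gene called and those next to a threshold. The copies, the liver genes and further genes given with values were chosen after their values were seen. The remaining gene and a gene next to a threshold are not reported here.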

Additional observations from a re-analysis of the deposited data

Results flagged for a closer look

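The cast effect on Rps12l1 differed among the 7 strains that express it (edgeR quasi-likelihood test of the difference, FDR 0.0153). It was lower in the immobilized limb in 3 of 3 CAST/EiJ mice, at 0 CPM in each. Reads of Rps12l1 and Rps12 cannot be told apart over their 399 aligned bases, and the part of read assignment in this difference was not tested.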

How the results depend on the processing

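The number of genes silent in a strain followed the thresholds. It was 98 genes in 249 gene and strain combinations with expression set at 5 CPM, 25 in 65 at 20 CPM, 28 in 61 with every library below 0.1 CPM, 27 in 59 with no count in any library, 252 in 811 without the name filter, and 73 genes in control limbs only. The other alternatives gave 37 to 69 genes and 96 to 174 combinations. Leaving out each mouse gave 44 to 54 genes and 113 to 140 combinations, and 17 of the 47 genes failed the rule without some mouse.

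Cast calls over all genes numbered 1409 in the fit reported and 992 to 1820 in other alternatives. Leaving out a mouse gave 875 (NZO/HlLtJ replicate 6) to 2890 (A/J replicate 1). Of the 47 genes, 2 were called with the muscle covariate, 1 over all 8 strains, where silent strains carry no counts, and 6 to 8 without a mouse. Tgtp2 changed sign over all 8 strains (0.0377). Differences among strains were called in 278 genes without scaling and in 4 to 1291 without a mouse. Among the 47 they were called in 2 with no filter on low counts or with all 48 libraries, and in 0 to 3 without a mouse. Without the pairing of limbs (no replicate block) 6 of the 47 were called for the cast effect, and 1 gene of all differed among strains, Rps12l1. The causes of these shifts were not tested. DESeq2 was not run for the difference among strains. A count of 0 allows up to 3 counts in a library, and A/J rests on 1 mouse in the cast fit.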
